A study of Mus musculus with 12 samples.

Results

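The unfolded protein response and the integrated stress response were followed through 35 genes in colon tissue of mice with colitis. The genes were taken by symbol from a list of endoplasmic reticulum (ER) chaperones, ER-associated degradation (ERAD) factors, stress sensors, ATF4 with its effectors, and enzymes of serine, one-carbon and asparagine synthesis. All 35 symbols were present among the 21899 genes of the table, on 36 lines, because Ddit3 has a second gene ID that held 1 read in all. Every one of the other 35 lines had enough reads to be kept, among 14393 genes tested in all. The list held 14 genes of ER protein folding, 5 of ERAD, 4 sensors and transducers, 7 of ATF4 and its stress effectors, and 5 of serine, one-carbon and asparagine synthesis.

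RNA was sequenced from the colon of 6 knockout mice, labelled CKO, in which Pck1 was deleted in intestinal epithelial cells, and of 6 littermate control mice, labelled WT. Mice of both genotypes had been given 2.5% dextran sulfate sodium (DSS), which injures the mucosa of the colon, over 7 days, so what is compared is genotype under DSS. The promoter that drove the deletion, and the strain, age and sex of the mice, were not stated in the labels. The question put to the comparison is whether these stress genes differ in colitis when the gut epithelium lacks Pck1, the cytosolic phosphoenolpyruvate carboxykinase.

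The ER folds secreted and membrane proteins with the help of chaperones such as BiP, encoded by Hspa5, and disulfide isomerases of the PDI family. When unfolded proteins gather there, the sensors IRE1, PERK and ATF6 raise the transcription of chaperone and ERAD genes and slow protein synthesis. PERK slows it by phosphorylating eIF2, a step it shares with kinases that sense amino acid shortage, haem shortage and double-stranded RNA, and which favours translation of ATF4. ATF4 in turn raises genes of amino acid supply and of stress termination or cell death. In the gut, goblet cells and plasma cells carry a large secretory load. Gene-level read counts do not show Xbp1 splicing, eIF2 phosphorylation or ATF4 protein.

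ER stress and ATF4 act through known promoter elements, and the stretches printed here are shown because matches to their letters occurred unequally among the arms. Promoter windows from 250 bases before to 50 bases after the start were found for 31 of the 35 members in RefSeq sequence of build GRCm38.p6. The ER stress element (ERSE) was searched on both strands as CCAAT, any 9 bases and CCACG, and its short form ERSE-II as ATTGG, any 1 base and CCACG. ERSE occurred in 8 of the 16 ER folding and ERAD members with a window, in 0 of 12 ATF4 and serine members and in 0 of 3 sensors, against 0.119% of all 32851 windows. ERSE-II occurred in 2 of those 16, Herpud1 and Dnajb11, against 0.0365% of all windows. In the lines that follow, capitals mark the matched letters, read 5′ to 3′ on the strand of the gene, so a match that begins with CGTGG is the element on the opposite strand.
Hspa5: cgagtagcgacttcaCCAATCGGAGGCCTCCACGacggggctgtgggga
Creld2: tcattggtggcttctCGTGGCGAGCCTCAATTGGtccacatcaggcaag
Pdia6: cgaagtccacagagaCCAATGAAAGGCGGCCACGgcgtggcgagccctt
Calr: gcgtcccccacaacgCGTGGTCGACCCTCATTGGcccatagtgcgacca
Canx: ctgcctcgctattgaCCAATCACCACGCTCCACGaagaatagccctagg
Dnajc3: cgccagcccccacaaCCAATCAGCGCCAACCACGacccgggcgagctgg
Syvn1: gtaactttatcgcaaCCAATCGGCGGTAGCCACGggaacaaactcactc
Herpud1: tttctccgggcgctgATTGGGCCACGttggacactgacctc
The stretches lie at chr2:34772010-34772058 (Hspa5, plus strand), chr15:88819505-88819553 (Creld2, plus), chr12:17266476-17266524 (Pdia6, plus), chr8:84847060-84847108 (Calr, minus), chr11:50325785-50325833 (Canx, minus), chr14:118937812-118937860 (Dnajc3, plus), chr19:6046517-6046565 (Syvn1, plus) and chr8:94386362-94386402 (Herpud1, plus). Hsp90b1 carried the element at 2 places, which begin 212 and 107 bases before the start.

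The composite site bound by C/EBP and ATF factors was searched on both strands as TGATGNAA. It occurred in 4 of the 12 ATF4 and serine members (Chac1, Nupr1, Trib3 and Asns) and in 1 of the 16 ER folding and ERAD members (Herpud1), against 3.97% of all windows. Chac1, Nupr1 and Herpud1 carried the same 8 letters, here on the opposite strand. The stretches lie at chr2:119351029-119351076 (Chac1, plus strand), chr7:126625553-126625600 (Nupr1, minus) and chr8:94386297-94386344 (Herpud1, plus).
Chac1: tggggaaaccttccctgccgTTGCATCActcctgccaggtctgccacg
Nupr1: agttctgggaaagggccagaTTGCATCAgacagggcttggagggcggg
Herpud1: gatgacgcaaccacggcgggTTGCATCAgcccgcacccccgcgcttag
Herpud1 was thus the 1 member whose window held both kinds of element. The UPR element, searched as TGACGTGG, occurred in 0 of the 31 members with a window and in 0.676% of all windows. These are matches of letters within a short window, not measured binding sites.

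Knockout libraries held 15348192 to 18211663 counts and control libraries 15881625 to 19138507. Pck1 stood at 4.19 ± 2.10 CPM (counts scaled to a common library size) in knockout mice, against 53.0 ± 17.8 CPM in control mice (SD, n = 6 each), and fell (edgeR adjusted p = 0.000391). Epithelial markers were present in every library, with Krt8 at 3010 CPM in knockout mice, against 3586 CPM in control mice, on average. Single libraries stood apart in their cell content. Control replicate 6 held 32940 CPM of exocrine pancreas transcripts, summed over 14 marker genes, against 78.7 to 4254 CPM in the other controls and 37.6 to 2196 CPM in the knockouts. Neutrophil markers summed to 733, 1361 and 1427 CPM in knockout replicates 1, 2 and 3, while knockout replicates 4, 5 and 6 held 278 to 300 CPM. Control replicate 4 held 610 CPM of them and the other controls 138 to 244 CPM. Tissue RNA cannot tell fewer cells of a type from less RNA per cell.

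As a group the 35 members, which were chosen with earlier results of these data known, lay higher in the knockout. No single one passed the test over all genes. Lists of further genes of the same pathways, described below, had median log2 fold changes of -0.15 to 0.09, so the members do not stand for their pathways. By the quasi-likelihood test of edgeR, adjusted after Benjamini and Hochberg, 0 of 35 members passed the threshold of 0.05, against 8 of 14393 genes (0.0556%, with 0.0278% higher and 0.0278% lower), and the smallest adjusted p among members was 0.0615, of Ddit3. At an unadjusted p under 0.05 there were 14 higher and 0 lower members, where 13.1% of all tested genes were higher and 9.48% lower, 22.6% in either direction. Later counts at this p from the same fit stand against these shares. The log2 fold change (knockout over control) was above 0 for 31 of 35 members, with a median of 0.21, while the median of all tested genes was -0.03. For 0 of 35 members did the 6 knockout libraries lie wholly apart from the 6 controls, against 1.52% of all genes (0.882% higher and 0.639% lower). The authors' deposited table, for which no test is named, gave 4 members an adjusted p under 0.05, Ddit3 (0.00677), Chac1 (0.0123), Trib3 (0.0436) and Hspa5 (0.0462), all higher. Of all genes tested, 9.39% were under 0.05 in the authors' deposited table, with 6.88% higher and 2.51% lower. DESeq2 gave 7 members an adjusted p under 0.05, all higher (Ddit3, Chac1, Hspa5, Trib3, Syvn1, Creld2 and Manf). That fit called 1103 of all 14393 genes higher and 429 lower.

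**Figure D1:**
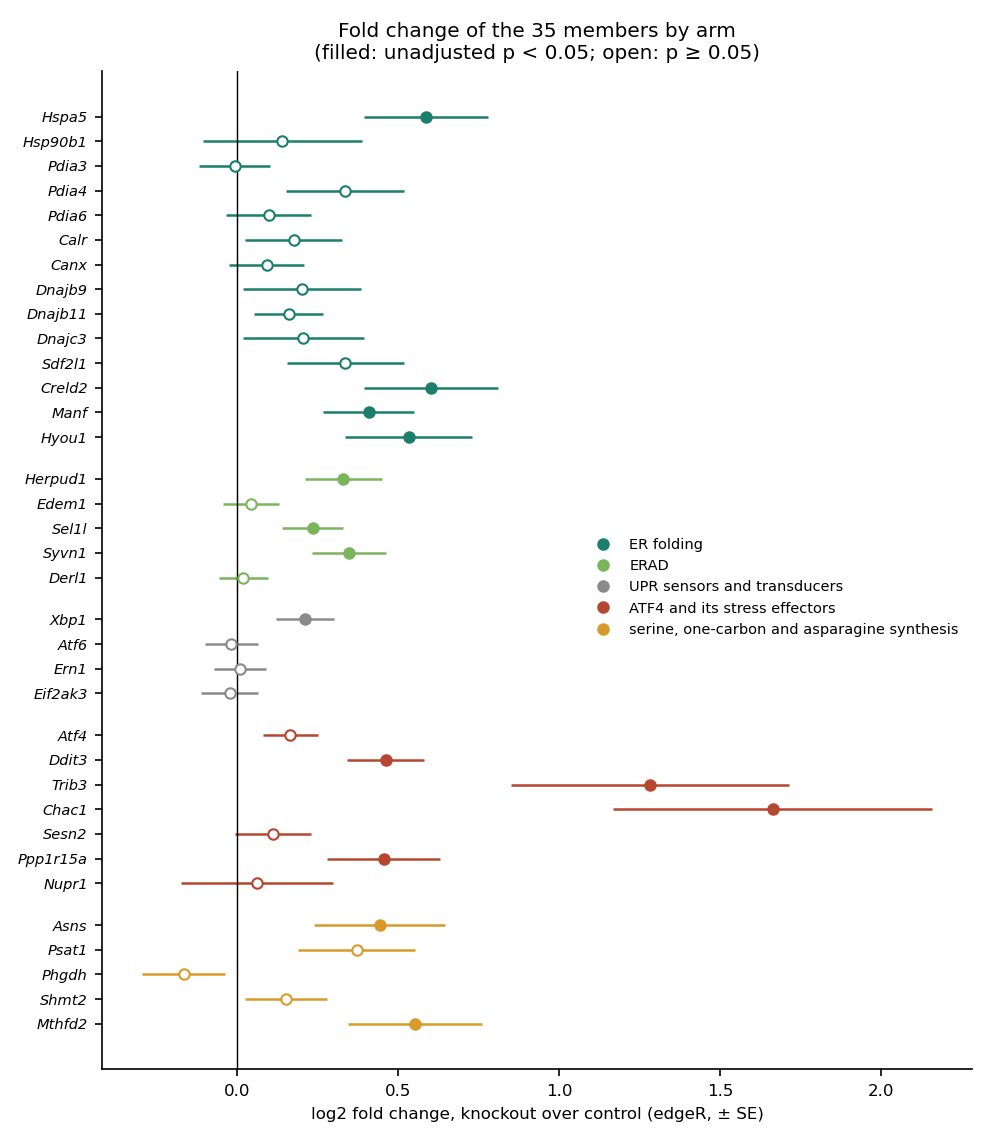
Log2 fold change of each of the 35 members, knockout over control (edgeR, bars are SE, 6 libraries per group), grouped by arm and filled where the unadjusted p was under 0.05. The 14 filled points lie to the right of 0, and Chac1 and Trib3 lie farthest out with the widest bars.

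Per transcript length, as TPM, the folding genes were among the most abundant members. Calr, the calcium-binding lectin chaperone calreticulin, stood at 703 ± 195 TPM in knockout mice, against 592 ± 102 TPM in control mice. Hspa5 stood at 692 ± 245 TPM in knockout mice, against 434 ± 64.2 TPM in control mice, and Hsp90b1, the ER form of HSP90, at 664 ± 273 TPM and 574 ± 134 TPM in the same order. At the other end Trib3 stood at 2.25 ± 1.33 TPM in knockout mice, against 0.899 ± 0.403 TPM in control mice (SD, n = 6 each throughout).

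Among the ER folding genes 4 of 14 were higher at an unadjusted p under 0.05, where 13.1% of all tested genes were. A fold change above 0 was found in 13 of 14, with a median log2 fold change of 0.20. Hspa5, the BiP gene and the central chaperone that also holds the sensors inactive, had 642, 1025 and 1304 CPM in knockout mice, against 581, 631 and 812 CPM in control mice (lowest, median and highest). Knockout replicates 1, 5 and 6 held 1267, 1273 and 1304 CPM, above every control, while knockout replicates 2, 3 and 4 lay within the control range. Its log2 fold change was 0.59 ± 0.19 (SE; edgeR adjusted p = 0.0979).

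The other 3 were Creld2, Hyou1 and Manf. Creld2, a secreted ER stress-induced protein with isomerase activity, had 37.6, 70.7 and 92.7 CPM in knockout mice, against 36.9, 45.0 and 57.6 CPM in control mice (lowest, median and highest). Hyou1, the large HSP70-like chaperone GRP170, had 103, 189 and 257 CPM in knockout mice, against 104, 126 and 154 CPM in control mice. In both genes knockout replicates 1, 5 and 6 were the 3 highest libraries, and knockout replicate 3 was close to the lowest control. Manf, an ER-resident neurotrophic factor released under stress, had 114, 163 and 203 CPM in knockout mice, against 107, 124 and 136 CPM in control mice, with 5 knockout libraries above the highest control. Their log2 fold changes were 0.60 ± 0.21, 0.53 ± 0.20 and 0.41 ± 0.14 (SE), at edgeR adjusted p values of 0.112, 0.131 and 0.109.

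The fold changes of the 10 remaining folding genes were smaller. Hsp90b1 had 473, 1023 and 1394 CPM in knockout mice, against 606, 884 and 1160 CPM in control mice (log2 fold change 0.14 ± 0.25, SE). Pdia3, which works with the lectin chaperones on glycoproteins, stood at 861 ± 150 CPM in knockout mice, against 865 ± 46.8 CPM in control mice (SD, n = 6 each). Its log2 fold change of -0.01 ± 0.11 turned to 0.01 with DESeq2 size factors and 0.04 with library size alone. Calr (0.18 ± 0.15), its membrane-bound relative Canx (0.09 ± 0.12) and the isomerase Pdia6 (0.10 ± 0.13) were close to 0, and the isomerase Pdia4 stood at 0.33 ± 0.18. The J-domain partners of BiP, Dnajb9, Dnajb11 and Dnajc3, stood at 0.20 ± 0.18, 0.16 ± 0.11 and 0.21 ± 0.19, and Sdf2l1, which works in a complex with Dnajb11, at 0.34 ± 0.18 (log2 fold change, SE).

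The knockout mice were split in the same way for most of these genes. Knockout replicates 1, 5 and 6 lay above every control for Hspa5, Hsp90b1, Pdia4, Canx, Dnajb11, Dnajc3 and Sdf2l1, and the other knockouts did not. For Canx the other 3 knockout libraries lay below every control. The highest of all 12 libraries was knockout replicate 6 in 10 of the 14 folding genes, replicate 1 in 3 and replicate 5 in 1.

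**Figure D2:**
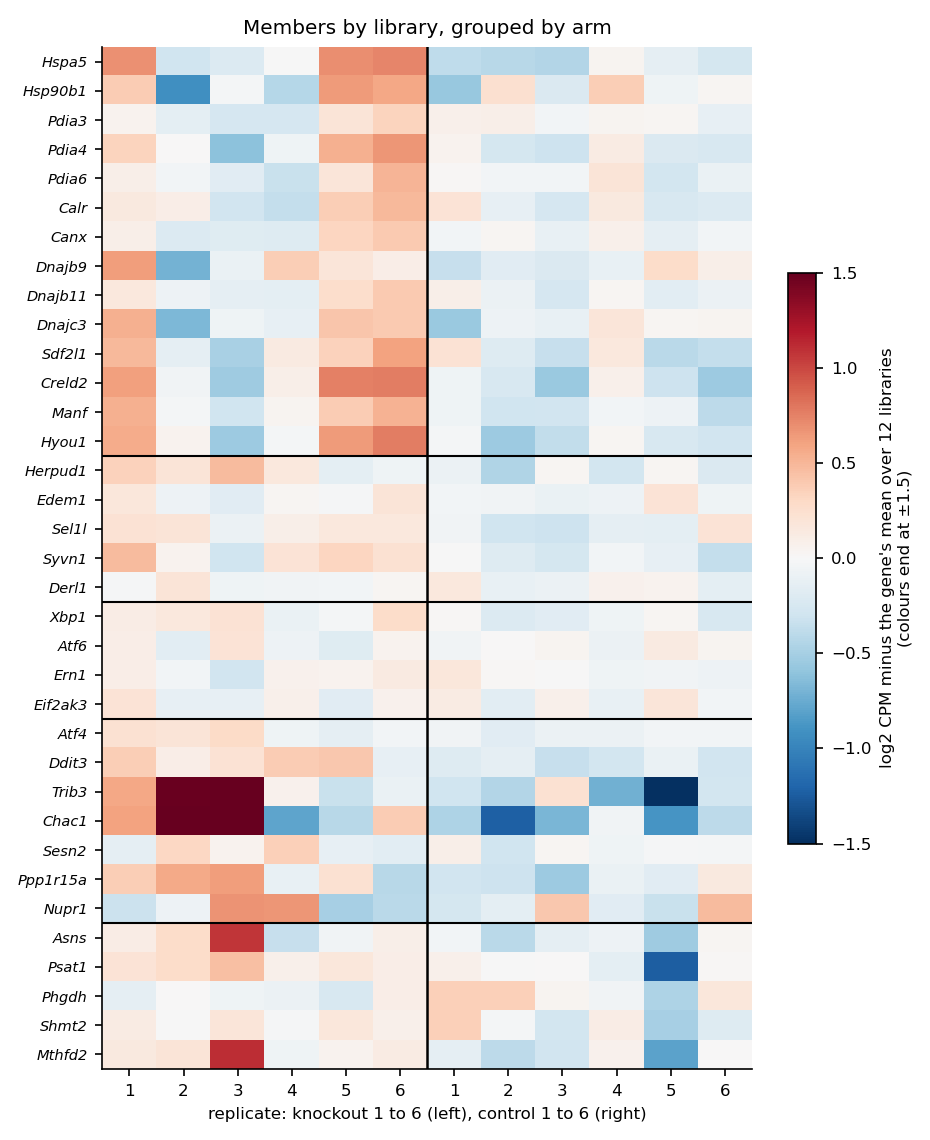
Log2 CPM of each member minus its mean over the 12 libraries, in 6 knockout libraries (left) and 6 control libraries (right), with black lines between arms; colours end at ±1.5. Red in the folding genes falls in knockout replicates 1, 5 and 6, and red in Trib3, Chac1, Asns and Mthfd2 falls in knockout replicate 3, with replicate 2 also red in Trib3 and Chac1.

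All 5 ERAD genes had a fold change above 0, with a median log2 fold change of 0.23. At an unadjusted p under 0.05, 3 of 5 were higher, where 13.1% of all tested genes were. Syvn1, the ubiquitin ligase HRD1 of the retrotranslocation channel, had 47.4, 67.7 and 80.8 CPM in knockout mice, against 45.4, 52.0 and 57.8 CPM in control mice (lowest, median and highest). In 5 of 6 knockout libraries it lay above the highest control, replicate 3 being the exception. Herpud1, a membrane protein that assembles that ligase complex, had 128, 159 and 196 CPM in knockout mice, against 103, 127 and 144 CPM in control mice, and here knockout replicates 1 to 4 lay above every control. Sel1l, the adaptor that stabilises HRD1, had 141, 168 and 174 CPM in knockout mice, against 121, 136 and 173 CPM in control mice. Their log2 fold changes were 0.35 ± 0.12, 0.33 ± 0.12 and 0.23 ± 0.10 (SE), at edgeR adjusted p values of 0.101, 0.124 and 0.167. Edem1, a lectin that directs misfolded glycoproteins to degradation, and Derl1, a channel component, stood at 0.04 ± 0.09 and 0.02 ± 0.08.

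Of the sensors and transducers, the 3 sensor genes had fold changes near 0. Ern1, encoding IRE1, stood at 50.5 ± 5.07 CPM in knockout mice, against 50.1 ± 3.26 CPM in control mice (SD, n = 6 each). Eif2ak3, encoding PERK, stood at 60.9 ± 6.44 CPM in knockout mice, against 61.9 ± 5.74 CPM in control mice, and Atf6 had 86.3, 97.3 and 113 CPM in knockout mice, against 92.0, 99.5 and 108 CPM in control mice (lowest, median and highest). Their log2 fold changes were 0.01 ± 0.08, -0.02 ± 0.09 and -0.02 ± 0.08 (SE), and the last 2 turned to 0.02 with library size as the only scaling. Xbp1, the target of IRE1 splicing and a transcription factor of secretory cells, had 314, 371 and 409 CPM in knockout mice, against 286, 311 and 343 CPM in control mice (log2 fold change 0.21 ± 0.09; edgeR adjusted p = 0.180). Knockout replicates 1, 2, 3 and 6 lay above every control in Xbp1.

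All 7 genes of ATF4 and its stress effectors had a fold change above 0, with a median log2 fold change of 0.46. At an unadjusted p under 0.05, 4 of 7 were higher, where 13.1% of all tested genes were. Atf4 itself stood at 156 ± 19.1 CPM in knockout mice, against 139 ± 4.66 CPM in control mice (SD, n = 6 each; log2 fold change 0.17 ± 0.09; edgeR adjusted p = 0.273). Knockout replicates 1, 2 and 3 held 172, 167 and 178 CPM of it, and every other library held 130 to 143 CPM.

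Ddit3, the pro-apoptotic transcription factor CHOP, had 7.59, 10.2 and 10.98 CPM in knockout mice, against 6.48, 7.02 and 7.73 CPM in control mice (lowest, median and highest). In 5 of 6 knockout libraries it lay above the highest control, and knockout replicate 6 lay within the control range. The log2 fold change was 0.46 ± 0.12 (SE; edgeR adjusted p = 0.0615). An exon of Ddit3 overlaps Mars, the methionyl-tRNA synthetase gene, on the opposite strand in GENCODE M21. Whether counting used strand is not stated in the labels, so reads of the overlap cannot be assigned. The same limit holds for other members with opposite-strand exon overlaps, among them Syvn1, Ppp1r15a, Manf, Shmt2, Pdia3, Pdia6, Eif2ak3 and Hsp90b1. On the same strand, Manf overlaps Rbm15b, Hsp90b1 overlaps Gm15344 and Gm25745, Pdia4 overlaps Mir704, and the Ddit3 gene IDs overlap each other.

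The largest fold changes of the list belonged to Chac1 and Trib3. Chac1, which degrades glutathione, had 1.68, 4.29 and 16.8 CPM in knockout mice, against 1.22, 1.996 and 2.89 CPM in control mice. Knockout replicate 3 held the 16.8 CPM, replicate 2 held 8.68 and replicate 1 held 4.62 CPM, while replicates 4 and 5 lay within the control range at 1.68 and 2.23 CPM. The log2 fold change was 1.66 ± 0.50 (SE; edgeR adjusted p = 0.0782), or 3.17-fold, and without knockout replicate 3 it was 1.09 (edgeR adjusted p = 0.147). Trib3, a pseudokinase that restrains ATF4 and CHOP, had 1.09, 1.81 and 4.62 CPM in knockout mice, against 0.304, 1.06 and 1.66 CPM in control mice, again with knockout replicates 3, 2 and 1 on top. Its log2 fold change was 1.28 ± 0.43 (SE; edgeR adjusted p = 0.105), and it rests on 5 to 72 reads per library.

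Ppp1r15a, the GADD34 subunit that leads a phosphatase back to eIF2, had 19.4, 32.0 and 40.2 CPM in knockout mice, against 17.7, 22.2 and 28.6 CPM in control mice (log2 fold change 0.46 ± 0.17, SE; edgeR adjusted p = 0.143). Knockout replicates 1, 2, 3 and 5 lay above every control. Sesn2, a leucine sensor upstream of mTORC1, stood at 0.11 ± 0.12, and Nupr1, a stress-induced chromatin protein, at 0.06 ± 0.24, with the highest Nupr1 values in knockout replicates 3 and 4 (284 and 283 CPM).

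**Figure D3:**
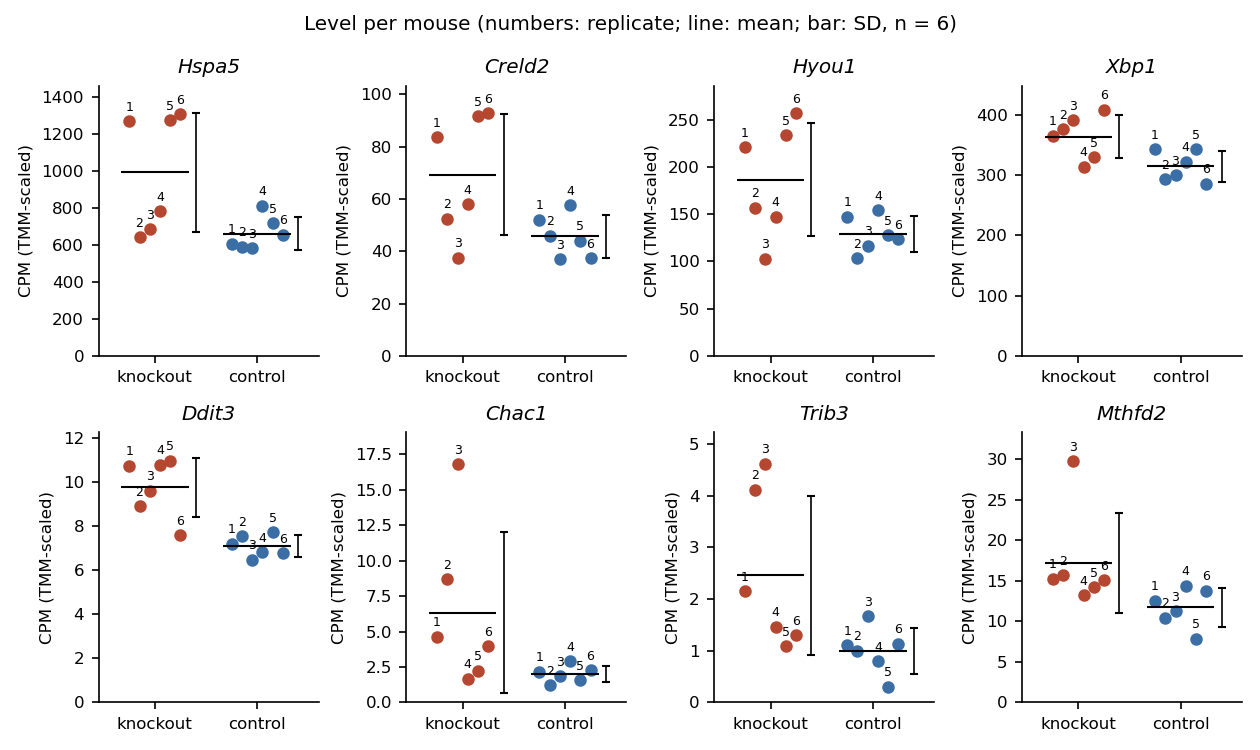
CPM of 8 members in each of the 6 knockout (red) and 6 control (blue) libraries, numbered by replicate, with the group mean (line) and SD (bar). Hspa5, Creld2 and Hyou1 are highest in knockout replicates 1, 5 and 6, whereas Chac1 and Trib3 are highest in knockout replicates 3 and 2.

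In serine, one-carbon and asparagine synthesis 2 of 5 genes were higher at an unadjusted p under 0.05, where 13.1% of all tested genes were. The median log2 fold change was 0.37. Mthfd2, the mitochondrial folate dehydrogenase, had 13.2, 15.2 and 29.7 CPM in knockout mice, against 7.86, 11.9 and 14.4 CPM in control mice (log2 fold change 0.55 ± 0.21, SE; edgeR adjusted p = 0.139). Asns, asparagine synthetase, had 42.8, 58.6 and 115 CPM in knockout mice, against 37.8, 50.7 and 55.9 CPM in control mice (0.44 ± 0.20; edgeR adjusted p = 0.214). Both peaks were knockout replicate 3, and without it the log2 fold changes were 0.33 for Mthfd2 and 0.21 for Asns. Psat1, the transaminase of serine synthesis, had 25.9, 28.0 and 33.6 CPM in knockout mice, against 10.4, 24.5 and 25.9 CPM in control mice, where control replicate 5 held the lowest value (0.37 ± 0.18; edgeR adjusted p = 0.243). Without that library its log2 fold change was 0.23.

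Phgdh, the dehydrogenase that commits carbon to serine, had 22.0, 24.7 and 27.9 CPM in knockout mice, against 18.9, 28.2 and 33.5 CPM in control mice, so the knockout values lay wholly inside the control range (log2 fold change -0.17 ± 0.13, SE). The same held for Shmt2, the mitochondrial serine hydroxymethyltransferase, at 30.3 ± 1.79 CPM in knockout mice, against 27.3 ± 5.75 CPM in control mice (SD, n = 6 each; log2 fold change 0.15 ± 0.13). Control replicate 5 was the lowest of the 12 libraries for all 5 enzymes. For Phgdh the next lowest control held 25.1 CPM, and knockout replicates 1, 3, 4 and 5 lay below that, at 22.0 to 25.0 CPM. That the Phgdh knockout values lay inside the control range thus rested on control replicate 5. With each library left out in turn, the log2 fold change of Phgdh ran from -0.26 to -0.11.

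Set side by side, the ER folding and ERAD arm had 7 of 19 genes higher at an unadjusted p under 0.05, and the ATF4 and serine arm 6 of 12. Of all tested genes 13.1% were higher at that p. The median log2 fold changes were 0.21 and 0.41 in the same order. The gap between these medians rested on single libraries, since they were 0.25 and 0.26 without knockout replicate 3 and 0.33 and 0.37 without knockout replicate 2. With sample quality weights in limma voom they were 0.35 and 0.38. Which knockout mice carried these values differed between the arms. The ER folding level, a mean of centred log2 CPM, was 0.38, 0.42 and 0.52 in knockout replicates 1, 5 and 6, against -0.28 to -0.09 in knockout replicates 2, 3 and 4 and -0.25 to 0.09 in the controls. The level of ATF4 and its effectors was 0.24, 0.58 and 0.85 in knockout replicates 1, 2 and 3, against -0.12 to 0.07 in knockout replicates 4, 5 and 6 and -0.48 to -0.06 in the controls. Replicate 1 was thus high on both, replicates 5 and 6 on the first, and replicates 2 and 3 on the second. Replicate 4 lay within the control range on the first and, at 0.07, above every control on the second. The ER folding and ERAD level minus the ATF4 and serine level spanned -0.94 to 0.44 in the knockout and -0.13 to 0.48 in the control. The SD of log2 CPM was larger in the knockout for 17 of 19 ER folding and ERAD genes (89.5%) and 9 of 12 ATF4 and serine genes, where 66.6% of all tested genes showed the same.

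**Figure D4:**
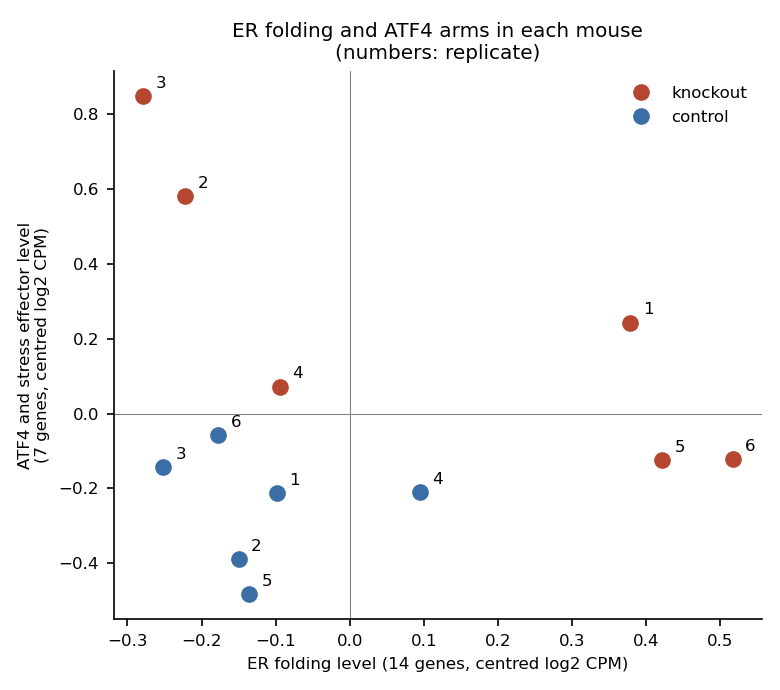
Each point is a mouse, numbered by replicate, with the mean centred log2 CPM of the 14 ER folding genes across and of the 7 ATF4 and effector genes up. Knockout replicates 5 and 6 lie at the lower right, 2 and 3 at the upper left, 1 at the upper right, and the controls near the lower left.

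Other gene groups were high in some of the libraries in which each arm was high. Cytosolic heat shock genes, which respond to unfolded protein outside the ER, were above 0 in 11 of 11, with a median log2 fold change of 0.75. At an unadjusted p under 0.05, 8 of them were higher, where 13.1% of all tested genes were. By the smallest p these were Hsph1, an HSP110 chaperone, at 161 CPM in knockout mice, against 45.1 CPM in control mice (1.83 ± 0.42, SE; edgeR adjusted p = 0.0533), and Bag3, a co-chaperone (0.39 ± 0.10; edgeR adjusted p = 0.0616). The heat shock level was 0.89, 0.55, 1.09 and 0.72 in knockout replicates 1, 4, 5 and 6, -0.43 and -0.50 in knockout replicates 2 and 3, and -0.54 to -0.14 in the controls. Knockout replicates 1, 5 and 6 were thus high both here and in ER folding, whereas replicate 4 was high here and within the control range in ER folding.

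Neutrophil markers were highest in knockout replicates 1, 2 and 3, the libraries with the highest level of ATF4 and its effectors. Of 10 tested, 8 were higher at an unadjusted p under 0.05, where 13.1% of all tested genes were, and none of the 11 markers was at 0 in all libraries. The neutrophil level was 1.46, 2.57 and 2.49 in knockout replicates 1, 2 and 3 and -0.46 to 0.03 in knockout replicates 4, 5 and 6. Control replicate 4 stood at 0.94 and the other controls at -1.98 to -0.50, while the level of ATF4 and its effectors in control replicate 4 was -0.21. Fibroblast markers, 8 of 10 higher at an unadjusted p under 0.05 and none at 0 in all libraries, summed to 5173 to 12099 CPM in knockout mice, against 3322 to 6227 CPM in control mice. They were highest in knockout replicates 2, 3 and 1, at levels of 0.91, 0.39 and 0.33. Macrophage markers, 7 of 10 higher at the same p, had levels of 0.23, 0.85 and 0.43 in knockout replicates 1, 2 and 3 and -0.05 to 0.25 in knockout replicates 4, 5 and 6, against -0.67 to 0.09 in control mice. Endothelial markers, 4 of 6 higher, had levels of 0.17, 0.88 and 0.43 in knockout replicates 1, 2 and 3 and -0.06 to 0.21 in the other knockouts, against -0.56 to 0.08 in control mice. Of 11 epithelial markers 4 were lower at that p, where 9.48% of all tested genes were. The 11 summed to 10048 to 14580 CPM in knockout mice, against 11380 to 14842 CPM in control mice. With the neutrophil level as a covariate, a fit chosen after seeing the data, the median log2 fold change of the ATF4 and serine arm was 0.066 and that of the ER folding and ERAD arm was 0.26. In that fit 7 members were higher at an unadjusted p under 0.05, 6 of them in ER folding and ERAD, where 2.69% of all genes were higher. Chac1 stood at 0.03 ± 0.41, Trib3 at 0.15 ± 0.49 and Mthfd2 at 0.08 ± 0.21, while Hspa5 stood at 0.73 ± 0.24, Creld2 at 0.79 ± 0.25 and Ddit3 at 0.54 ± 0.16 (log2 fold change, SE). The edgeR adjusted p of each of these genes was 0.998 in that fit, and 0 members were called. With the fibroblast level in its place, likewise chosen after seeing the data, the medians were 0.13 and 0.29. In this fit 5 members were higher at an unadjusted p under 0.05, where 1.3% of all genes were, and 0 were called. The covariates themselves differed by genotype, with median sums of 516 CPM of neutrophil markers in knockout mice, against 169 CPM in control mice.

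Markers of other secretory cells were set beside the folding arm. Goblet cell markers, of which Muc2 and Zg16 were the most abundant, were below 0 in 10 of 10, with a median log2 fold change of -0.45 and a summed level of 10337 to 16596 CPM in knockout mice, against 12329 to 19852 CPM in control mice. Plasma cell markers went both ways, with 3 of 9 above 0 and 6 below 0, and a median log2 fold change of -0.09. At an unadjusted p under 0.05, 1 of them was higher and 1 lower. Jchain, the most abundant, stood at 860 CPM in knockout mice, against 1021 CPM in control mice. The 9 markers summed to 1100 to 1391 CPM in knockout mice, against 847 to 1702 CPM in control mice. Summed pancreas markers stood at 2196, 2112 and 37.6 CPM in knockout replicates 1, 5 and 6, where the ER folding level was high. Knockout replicates 2, 3 and 4, where it was lower, held 42.3, 991 and 1562 CPM. Control replicate 6 held the most, at 32940 CPM, and its ER folding level was -0.18. Whether the pancreas markers and ER folding are linked was not tested. With the pancreas level as a covariate, Hspa5 stood at 0.61 ± 0.20 and Chac1 at 1.68 ± 0.53 (log2 fold change, SE).

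**Figure D5:**
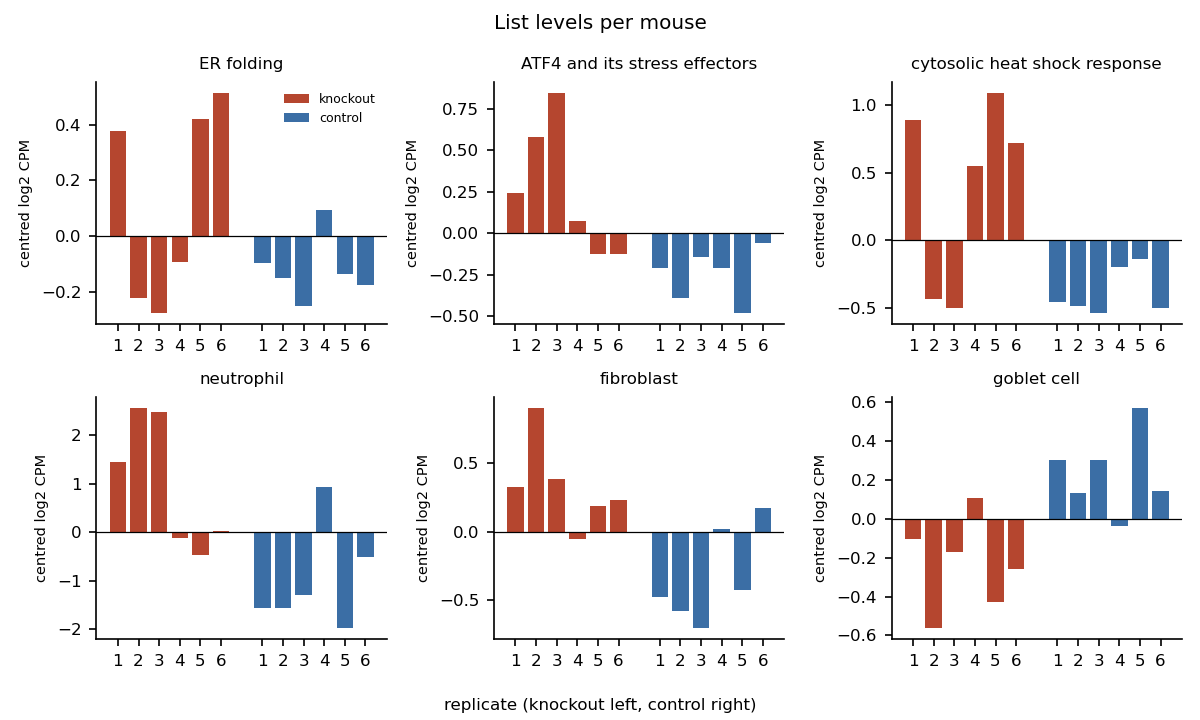
Mean centred log2 CPM per library of ER folding, ATF4 and effector, heat shock, neutrophil, fibroblast and goblet cell lists, in 6 knockout (red, left) and 6 control (blue, right) libraries numbered by replicate. Heat shock bars stand high in knockout replicates 1, 4, 5 and 6, and neutrophil bars in knockout replicates 1, 2 and 3.

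Of the further genes of the same pathways 0 passed over all genes, and their counts at an unadjusted p under 0.05 stand against 13.1% of all genes higher and 9.48% lower. Of 28 further folding and translocation genes 2 were higher and 2 lower at that p (median log2 fold change 0.02), both shares below those of all genes. Selenok, a selenoprotein of the ER membrane (0.24 ± 0.07, SE), and Calu, a calcium-binding protein (0.24 ± 0.08), were the higher ones, and Dnajc10 (-0.28 ± 0.08), a disulfide reductase of ERAD, and Txndc5 (-0.36 ± 0.13), a PDI family member, the lower ones. Of 15 further ERAD genes 1 was higher, the ubiquitin-conjugating enzyme gene Ube2g2 (0.34 ± 0.08), and 0 were lower. Their median log2 fold change was -0.06. Among 12 further transducers 2 were higher and 4 lower (median log2 fold change -0.09). The higher ones were the membrane-bound transcription factor gene Creb3l2 (0.52 ± 0.12) and the wolframin gene Wfs1 (0.38 ± 0.13). The lower ones were led by Ern2 (-0.64 ± 0.17) and Bhlha15 (-0.64 ± 0.21), a transcription factor of secretory cells. Ern2 is the form of IRE1 found in mucus-secreting epithelium and is also on the goblet cell list. Of 12 further genes of the eIF2 kinases and the eIF2 cycle 1 was higher and 1 lower (median log2 fold change -0.13). The higher one was Impact, which restrains the kinase GCN2 (0.45 ± 0.18), and the lower one Eif2b1 (-0.31 ± 0.11).

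Of 31 further ATF4 targets tested 8 were higher and 2 lower at an unadjusted p under 0.05, with a median log2 fold change of 0.09. Cebpb, a transcription factor that pairs with ATF4, stood at 97.8 ± 37.7 CPM in knockout mice, against 36.7 ± 12.6 CPM in control mice (SD, n = 6 each; 1.41 ± 0.27, SE; edgeR adjusted p = 0.0512). Atf5, a related transcription factor, stood at 28.2 ± 6.84 CPM in knockout mice, against 16.1 ± 2.97 CPM in control mice, with no overlap (0.81 ± 0.17; edgeR adjusted p = 0.0531). The lower ones were Cbs (-0.55 ± 0.20) and Cth (-0.45 ± 0.19), the enzymes that make cysteine from homocysteine. Of 15 further serine, glycine and one-carbon genes tested 0 were higher and 5 lower (median log2 fold change -0.15). The cytosolic folate enzyme gene Mthfd1 (-0.54 ± 0.16) had the smallest p of these. Of 9 mitochondrial chaperones and proteases 0 were higher and 2 lower, Htra2 (-0.31 ± 0.11) and Clpx (-0.23 ± 0.10). Their list had a median log2 fold change of -0.13.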

How the data were processed

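Colon RNA of 12 DSS-treated mice, 6 knockout and 6 littermate control, was made into libraries with the SMARTER mRNA-Seq kit, per the labels' protocols. The authors deposited one table with read counts and TPM for each library, per the file headers, with group means of TPM. The authors' log2 fold change in it is the ratio of those means on a log2 scale, and the p-value and adjusted p-value beside it come from a test the labels do not name. No aligner or counter is named in the labels, and genome builds are listed there without roles, so the build behind the counts is not known. Promoter sequences and their coordinates are from RefSeq on build GRCm38.p6, and exon overlaps are from GENCODE M21. There were 0 value columns belonging to other series.

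The deposited counts were fitted with edgeR 4.0.16 under R 4.3.3. The filterByExpr function (count of at least 10, total of at least 15) kept 14393 genes, and TMM gave the library scaling. The quasi-likelihood F test of knockout minus control used all 12 libraries, had no covariates and was adjusted by Benjamini and Hochberg over all tested genes, at a threshold of 0.05. The SE is the fold change divided by the root of F. List levels are means of log2 CPM (prior count 2), with each gene centred on its mean, and carry no test. The members and lists were chosen with earlier results of these data known. Named genes are all members and, from each further pathway list, up to 2 per direction with the smallest p under 0.05; from marker lists, genes among the 2 most abundant. A gene that this rule names is not reported here. The procedure was tested on simulated data. Alternatives were other scalings and filters, DESeq2 1.42.0, limma 3.58.1 (voom, and trend on log2 TPM with pseudocounts of 1 and 0.1), robust estimation, the replicate number as a block, marker levels as covariates, and each library left out. Counting error is set by 15348192 to 19138507 counts per library. Among the 66 combinations of libraries, chi-square per gene was 19.4 at the lowest, so none were alike within counting noise.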

Additional observations from a re-analysis of the deposited data

Results flagged for a closer look

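In 88 groups of 6 values (35 members and 9 list levels, each in knockout and control), 8 held a library set far from the rest. The cut marks about 1 group in 20 by chance if values are normal. These groups share genes and libraries, so their count cannot be set against that rate. Knockout replicate 3 stood above the other knockouts in Mthfd2, at 29.75 CPM with the next at 15.7, in Asns, at 115.2 CPM with the next at 66.0, and in the serine, one-carbon and asparagine level, at 0.55 with the next at 0.14. Control replicate 5 stood below the other controls in Psat1, at 10.35 CPM with the next at 22.1, and in the same list level, at -0.71 with the next at -0.13. It stood above them in Edem1, at 232.6 CPM with the next at 196. The remaining values were Derl1 in knockout replicate 2, at 123.8 CPM with the next at 111, and Ern1 in control replicate 1, at 56.28 CPM with the next at 50.7.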

How the results depend on the processing

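Besides the fit reported, 28 alternatives were run, 12 of them leaving out a library, and those with the neutrophil or fibroblast level were chosen after seeing the data. Genes called over the whole table, 4 higher and 4 lower as reported, numbered 33 and 19 with DESeq2 size factors, 230 and 45 with library size alone, 30 and 19 with limma voom, 1549 and 1339 with voom and sample quality weights, 32 and 21 with robust estimation, 355 and 48 with log2(TPM + 1), 365 and 48 with log2(TPM + 0.1), and 1103 and 429 with DESeq2. They numbered 62 and 48 with the pancreas level, 1 and 2 with the plasma cell level, 1 and 1 with the neutrophil level and 0 and 1 with the fibroblast level. Without a library they ran from 0 to 870 higher and 2 to 402 lower, the most without knockout replicate 4. Members called, 0 as reported, were 7 with DESeq2, 12 with voom and quality weights, and 1, Ddit3, with library size alone and with each TPM pseudocount, all higher. Leaving out a library gave 0 to 1, the 1 being Chac1 without knockout replicate 4 (edgeR adjusted p = 0.0299; over all 28 alternatives 0.0102 to 0.9998). Members at an unadjusted p under 0.05 were 11 to 16 higher and 0 to 1 lower without a library, 7 higher with the neutrophil level and 5 with the fibroblast level, in place of 14, while the share of all genes higher was 2.69% and 1.3% in those fits, in place of 13.1%. With voom and quality weights 21 members were higher, where 17% of all genes were. The median log2 fold change of the ATF4 and serine arm was 0.066 with the neutrophil and 0.13 with the fibroblast level, in place of 0.41, and 0.26 to 0.43 without a library, lowest without knockout replicate 3. The ER folding and ERAD median ran from 0.17 to 0.33 without a library, highest without knockout replicate 2, and was 0.35 with voom and quality weights, in place of 0.21. The cause of these differences was not tested.

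The sign of 31 single log2 fold changes turned outside the fits without a library. Pdia3 stood at 0.0085 with DESeq2 size factors and with DESeq2, 0.0076 with the plasma cell level, 0.0035 with upper quartile, 0.015 without the filter, 0.040 with library size alone, 0.038 in both TPM fits, 0.081 with quality weights, 0.082 with the fibroblast level and 0.13 with the neutrophil level. Atf6 stood at 0.023 with library size alone, 0.020 with the fibroblast level, 0.0047 without the filter and 0.037 and 0.039 in the TPM fits. Eif2ak3 stood at 0.021 with library size alone, 0.028 with quality weights, 0.030 in both TPM fits, 0.062 with the neutrophil level and 0.083 with the fibroblast level. Nupr1 stood at -0.21 with quality weights, -0.024 with the plasma cell level and -0.12 with the neutrophil level. Derl1 stood at -0.0013, -0.019 and -0.048 with the pancreas, neutrophil and fibroblast levels, Ern1 at -0.0043 with the pancreas level, Asns at -0.050 with the neutrophil level and Ppp1r15a at -0.0069 with the fibroblast level. Without a library, Pdia3 ran from -0.083 to 0.042, Pdia6 from -0.0096 to 0.17, Derl1 from -0.019 to 0.055, Atf6 from -0.063 to 0.016, Ern1 from -0.016 to 0.063, Eif2ak3 from -0.069 to 0.012 and Nupr1 from -0.088 to 0.17.

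Same-numbered mice did not deviate together (correlations of -0.50 to 0.08). The labels do not say what the replicate numbers mean. Single libraries differed widely in cell content, so low correlations cannot show that no mice were paired. With the replicate block 0 genes were higher and 1 lower over the whole table, 0 members were called and 12 were higher at an unadjusted p under 0.05.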
